A study of Mus musculus with 24 samples.

Results

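Muscle cells without the retinoblastoma protein (Rb) were compared at both ends of differentiation: MCK-cre Rb-flox myotubes, cultures J, K and L, against Rb-null myoblasts, cultures D, E and F. These are 6 of the 12 cultures of the series and 12 of its 24 arrays (1 MOE430A and 1 MOE430B array per culture), chosen by the genotype and stage in the labels, and 14331 genes were tested across them. All were primary mouse skeletal muscle cells with a labelled purity of 99 to 100% by Desmin and MyoD staining, and fibroblasts were the contaminant named. The myotubes were at day 6 in DMEM with 5% horse serum and came from 3 independent lines that carry floxed Rb and a Cre recombinase gene driven by the promoter of muscle creatine kinase (MCK), active from differentiation on. Their precursors were therefore dividing before that Cre acted. The myoblasts were derived from satellite cells, grew in Hams F-10 with 20% serum and bFGF, lacked the Rb product while dividing, and are labelled as biological triplicates that differentiate poorly. The groups thus differ in stage, medium and genotype at once, and the myotubes did not come from these myoblasts. Wild-type myotubes (G, H and I, at day 6 from 3 independent lines) and wild-type myoblasts (A, B and C, in the growth medium) form the corresponding pair with Rb.

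Rb binds E2F transcription factors and keeps their target genes, which drive DNA replication and mitosis, at a low level. When myoblasts lose growth factors they normally leave the cell cycle for good, and MyoD, myogenin and the MEF2 factors switch on contractile, calcium-handling and metabolic genes while the cells fuse into myotubes. Rb is known to keep cycle genes shut in that state and to be needed for the full level of late muscle genes. The comparison asks which parts of that programme still change in cells without Rb.

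The targeted gene was read first. Rb1 (chr14:73192858-73325951, GRCm38.p6) had signals of 685, 802 and 589.8 in MCK-cre Rb-flox myotubes J, K and L, against 428, 712 and 259.7 in Rb-null myoblasts D, E and F. Wild-type myotubes had 3664, 3265 and 3314 and wild-type myoblasts 2879, 1439.7 and 1579, so every culture labelled as lacking Rb lay below every wild-type culture. Where this probe set lies relative to the deleted part was not determined. All signals are MAS5 intensities in arbitrary units, and the offset is 130.2 on MOE430A and 206.0 on MOE430B. A change is a difference of mean log2(signal + offset), myotubes minus myoblasts, with the standard error (SE) and Benjamini-Hochberg adjusted p of a limma fit, and calls were made at an adjusted p under 0.05. The fit estimates the spread from all 12 cultures, and it gave Rb1 no call between the groups without Rb (log2 change 0.53, SE 0.30, adjusted p = 0.23).

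Each group had a culture that stood apart. Across genes, log2 signals correlated at 0.91 between myotubes J and L but at 0.86 between J and K and 0.85 between K and L. The myoblast pairs lay between 0.93 and 0.94. Myoblast culture F was low in muscle genes: the median of the sarcomere list was -0.70 there, relative to the mean of its group, and 0.22 and 0.58 in D and E. Within a chip type no scan day held both groups. The only wild-type myoblast culture scanned with the myotubes was B, so a fit with scan day as a block ties the days together through that culture. On MOE430B, myoblasts E and F were scanned on a day of their own, so the blocked change of MOE430B genes rests on D as the only Rb-null myoblast as well as on B. On MOE430A the 18S rRNA control probe sets read 28.3-fold higher on the myotube arrays, and the hybridisation spike-ins 4.83-fold. On MOE430B these ratios were 17.4 and 3.40. Wild-type myoblast B, scanned on the day of the myotubes, read 7903 for 18S and 20049 for the spike-ins on MOE430A. Wild-type myoblasts A and C, scanned on the day of the Rb-null myoblasts, read 511 and 199 for 18S, and 5231 and 4929 for the spike-ins. On MOE430B the 18S values were 44292 in B, and 2030 and 1247 in A and C. Among wild-type myoblasts these controls were thus high only in B. The median signal was 1.19-fold higher on the MOE430A and 1.16-fold higher on the MOE430B arrays of the myotubes. The actin 3' to 5' ratio, a sign of RNA quality, was 0.879 ± 0.0794 in myotubes and 1.02 ± 0.0533 in myoblasts (SD, n = 3 each) on MOE430A. In none of these 7 comparisons did the groups overlap (exact permutation p = 0.1, the smallest that 3 against 3 allows, 2-sided, adjusted p = 0.143 over 10 tests), and in the other 3, the Gapdh ratios and the actin ratio on MOE430B, they did. The part of these measures in the results was not tested. Stage, medium, genotype of the precursors and scan day cannot be told apart by these cultures alone, and in bulk RNA fewer cells of a type and less RNA per cell cannot be told apart either.

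Markers of the labelled stage separated the groups. The 9 myotube markers (Ckm, Acta1, Myh3, Myh8, Tnnt3, Mb, Ryr1, Cacna1s and Atp2a1) summed to 217638 to 329324 in the MCK-cre Rb-flox myotubes, against 33495 to 126727 in Rb-null myoblasts. With Rb, wild-type myotubes summed to 514478 to 746663 and their myoblasts to 35462 to 89634. Muscle lineage markers were present in both groups without Rb, with sums of 153925 to 182027 in myotubes and 104433 to 158528 in myoblasts. Of 32 fibroblast and matrix genes, 28 passed the filter on low signals, and Postn, Lum, Fap and Dpt did not. Signals summed over the 32 overlapped, at 143805 to 197154 in myotubes against 131827 to 175012 in myoblasts. Sparc and Fn1 weigh most in that sum, so its overlap does not show equal fibroblast content. Single genes differed in both directions, with 4 of the 28 called higher and 4 lower. Postn had 337 to 2377 in myotubes and 42.6 to 142 in myoblasts, and Col1a1 80.5 to 1119 and 8.22 to 19.2. Tnc, at 261 to 549 and 4208 to 6770, and Col4a1, at 801 to 3784 and 8375 to 12835, went the other way. Of 14 macrophage markers, 7 passed, and Ptprc, Itgam, Aif1, C1qa, C1qb, Tyrobp and Lyz1 did not. Of 11 endothelial markers, 5 passed, and Pecam1, Tek, Tie1, Vwf, Emcn and Cldn5 did not.

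In Rb-deleted myotubes 1376 genes were higher and 1350 lower than in Rb-null myoblasts, which is 19.0% of all genes tested, 9.60% higher and 9.42% lower. Of these, 801 were at least 2-fold higher and 779 at least 2-fold lower. The 3 cultures of one group lay wholly above or below the 3 of the other for 5896 genes (41.1%), and 5078 genes had an unadjusted p under 0.05. The median change of all genes was 0.16, -0.04 after median centring. Subtracting each array's median before the fit turned the split to 739 genes higher and 1838 lower, so the balance of directions depends on the scaling and single genes are best read against the other genes. After median centring the sarcomere list had 19 genes higher, the interferon list 16, the G1/S list 10 lower and the G2/M list 42 lower. With scan day as a block, 195 genes (1.36%) were called, 121 higher and 74 lower. Of the genes called without the block, 2663 (97.7%) kept their sign, and 159 kept the call as well. Of these 195 genes, 177 were among 9143 on MOE430A and 18 among 5188 on MOE430B, and the 18 include the named genes Ankrd23, Arhgap22 and Ttyh3. Of the 133 named genes called without the block, its log2 change was smaller by over 1.5 times or of the other sign for 34 and larger by over 1.5 times for 13, which are given with the genes. Omission of 1 culture gave 1561 (without D) to 2135 (without K) calls. The median SE was 0.50 with the block and 0.28 without it.

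**Figure D1:**
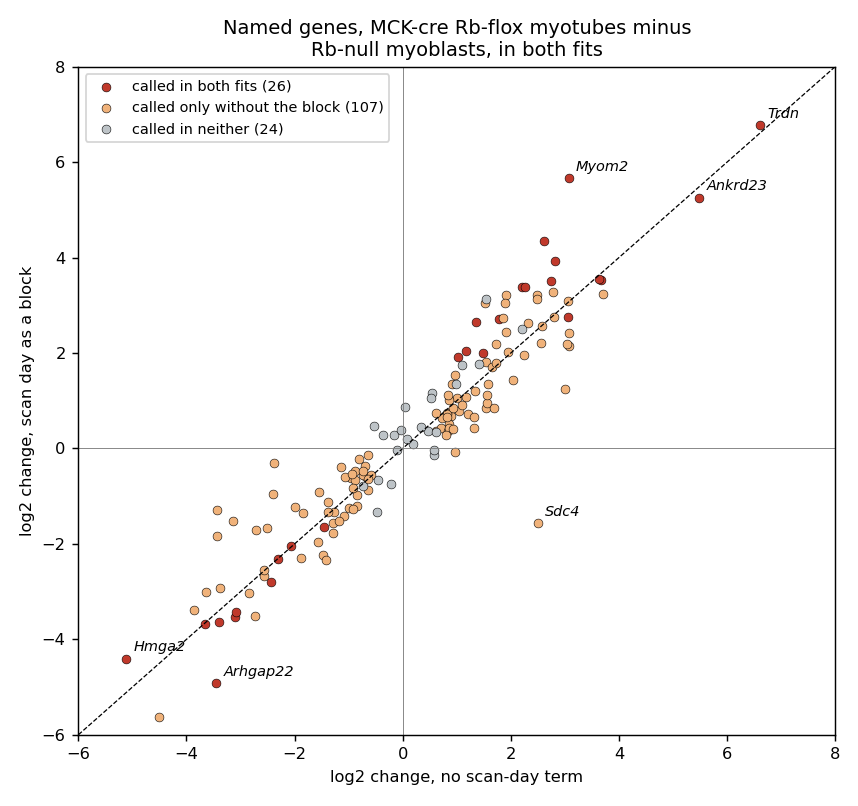
Log2 change of the 157 named genes, myotubes minus myoblasts without Rb, fitted without a block (x axis) and with scan day as a block (y axis), with point styles for calls at adjusted p under 0.05 and the diagonal drawn. The plot shows 26 genes called in both fits, 107 called only without the block and 24 called in neither, with most points near the diagonal and Sdc4 below 0 only with the block.

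Triadin (Trdn, chr10:33083483-33476709), which anchors the calcium release channel of the sarcoplasmic reticulum, had the largest rise. Its signals were 24169.7, 31878 and 22114 in MCK-cre Rb-flox myotubes and 117, 145 and 139 in Rb-null myoblasts, which is a fitted 98.2-fold difference (log2 change 6.62, SE 0.28, adjusted p = 5.06e-08). No myotube culture came near the myoblasts, and since the myoblast values lie near the offset, the fitted fold depends on the offset. It also depends on the probe set: the 4 Trdn probe sets past the filter gave log2 changes from 2.18 to 6.62. Ankrd23 (chr1:36530193-36536556), a muscle ankyrin repeat protein that binds titin, had 36434, 10183 and 19698 in myotubes and 554, 134 and 121 in myoblasts (log2 change 5.48, SE 0.46, adjusted p = 4.78e-05). The LIM and cysteine-rich domain gene Lmcd1, a cofactor in striated muscle, had 1913, 3175 and 3408 in myotubes and 66.4, 202 and 37.0 in myoblasts (log2 change 3.70, SE 0.45, adjusted p = 0.000304). The 12 largest rises were taken from called genes whose groups did not overlap, so their separation was set by that choice. The transmembrane glycoprotein gene Gpnmb had 5095, 5036 and 4253 in myotubes and 371, 140.1 and 293 in myoblasts, a 12.7-fold rise (adjusted p = 9.66e-05). Serpinb1a, an inhibitor of neutrophil proteases, rose 12.4-fold, and Ptgds, which makes prostaglandin D2, rose 8.39-fold (adjusted p = 0.00025 and 0.000195). The others of the 12 largest rises were Scd1, Myom2, Chchd10, Tspan13, Krt80 and Krt78, with log2 changes of 3.00 to 3.08. All 12 kept their call when any 1 culture was left out, and Trdn, Ankrd23, Gpnmb, Serpinb1a, Myom2 and Tspan13 also kept it with the scan-day block. With the scan-day block, the log2 change was 5.66 for Myom2 (adjusted p = 0.0211) and 1.24 for Krt78 (adjusted p = 0.633).

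The promoters of 4 genes are printed to show the letters behind the motif shares that follow: 2 called sarcomere genes with the largest rises for which RefSeq windows were at hand, and with the replication list, 2 called DNA replication genes with the largest falls. A window holds 250 bases before and 50 after the annotated start on GRCm38.p6, from RefSeq, 5' to 3' on the gene's strand, and where a gene had several windows the one with most matches is given. Capitals mark matches to an E2F motif (TTTCCCGC, TTTGCGC or TTTGGCGC), to an E-box (CAGCTG or CACCTG), the kind of site that MyoD and myogenin bind, and to a TATA motif (TATAAA), each read on both strands. Ankrd23 lies at chr1:36535690-36535989 on the minus strand and Myl2, the slow and cardiac regulatory myosin light chain, at chr5:122092939-122093238 on the plus strand.
Ankrd23: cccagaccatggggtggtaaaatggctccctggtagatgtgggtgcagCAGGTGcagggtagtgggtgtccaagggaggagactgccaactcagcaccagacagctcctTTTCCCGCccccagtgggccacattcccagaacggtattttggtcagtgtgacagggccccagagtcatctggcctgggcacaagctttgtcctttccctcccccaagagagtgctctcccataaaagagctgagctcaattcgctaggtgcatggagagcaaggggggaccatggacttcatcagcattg
Myl2: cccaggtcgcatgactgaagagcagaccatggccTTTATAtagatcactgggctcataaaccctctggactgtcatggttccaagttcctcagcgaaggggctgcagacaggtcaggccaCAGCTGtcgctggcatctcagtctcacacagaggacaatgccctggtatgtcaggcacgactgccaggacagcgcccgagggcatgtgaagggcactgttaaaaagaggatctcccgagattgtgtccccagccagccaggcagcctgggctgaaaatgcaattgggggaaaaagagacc
An E-box stood in 58.9% of 56 windows of sarcomere genes (44 of 56 genes matched) and in 44.4% of those of calcium-handling genes, beside 31.8% of 14599 windows of all tested genes (11492 of 14331 matched). The Ankrd23 window holds 1 E2F match and 1 E-box, and the Myl2 window 1 E-box and 1 TATA match. A TATA motif stood in 25.0% of sarcomere windows and 8.49% of all. Among all genes called higher an E-box stood in 35.5% of windows, and among those called lower in 25.8%. A match is a description of these letters and not a binding site.

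The sarcomere list was higher in the Rb-deleted myotubes. Of 56 tested sarcomere genes, 25 were called higher, 1 lower and 30 not called, beside 9.60% higher and 9.42% lower of all genes. The list's median log2 change was 1.50, beside 0.16 for all genes. Embryonic myosin heavy chain (Myh3) had signals of 59058, 40722 and 42614 in myotubes and 11462, 15609 and 3118 in Rb-null myoblasts (log2 change 2.48, SE 0.58, adjusted p = 0.012). Perinatal myosin heavy chain (Myh8) had 2812, 3093 and 5386 in myotubes and 321, 1141 and 391 in myoblasts (log2 change 2.48, SE 0.40, adjusted p = 0.00168). In both genes the groups did not overlap. Skeletal alpha-actin (Acta1), the thin filament protein, had 139629, 107216 and 107434 in myotubes and 50414, 48844 and 17687 in myoblasts (log2 change 1.73, SE 0.40, adjusted p = 0.0113). The M-band protein gene Myom2 had 20204, 13623 and 17506 in myotubes and 3715, 2830.5 and 604 in myoblasts (log2 change 3.07, SE 0.71, adjusted p = 0.0107). The fast troponin I gene Tnni2 (1.91, adjusted p = 0.0406), the small heat shock protein gene Cryab (1.66, adjusted p = 0.0305) and the Z-disc gene Myoz1 (0.96, adjusted p = 0.0458) were called higher, and Myl2 likewise, with 3776, 777 and 5022 in myotubes and 264, 263 and 244 in myoblasts (log2 change 2.77, SE 0.80, adjusted p = 0.0297). Calls were lost when 1 culture was left out for Tnni2 (D, F, J or L, up to 0.139), Cryab (F, J or K, up to 0.1), Myoz1 (D, E, J, K or L, up to 0.138), Nebl (D, E or J, up to 0.0834) and Myl2 (D, E, F, J or L, up to 0.101), where the letters name the culture and the value is the highest adjusted p. Nebulette (Nebl), a relative of nebulin at the Z-disc, was the only member called lower (-1.29, adjusted p = 0.025), and another of its probe sets, admitted when low signals are not filtered out, gave 0.21. Fast troponin T (Tnnt3, 1.41, adjusted p = 0.137), myoglobin (Mb, 1.09, adjusted p = 0.262) and the adult fast myosin Myh2 (1.54, adjusted p = 0.0866) were not called. Another Mb probe set gave -0.02. By culture, the list's median relative to the Rb-null myoblast mean was 1.68, 1.27 and 1.43 in myotubes J, K and L and 0.22, 0.58 and -0.70 in myoblasts D, E and F. Omission of 1 culture gave 16 (without J) to 30 (without E) members called higher, with a median of 1.07 without F, and scan day as a block gave 5, with a median of 1.89. Fitted with the scan-day block, log2 changes were 3.21 for Tnni2 (adjusted p = 0.16) and -0.082 for Myoz1 (adjusted p = 0.957).

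**Figure D2:**
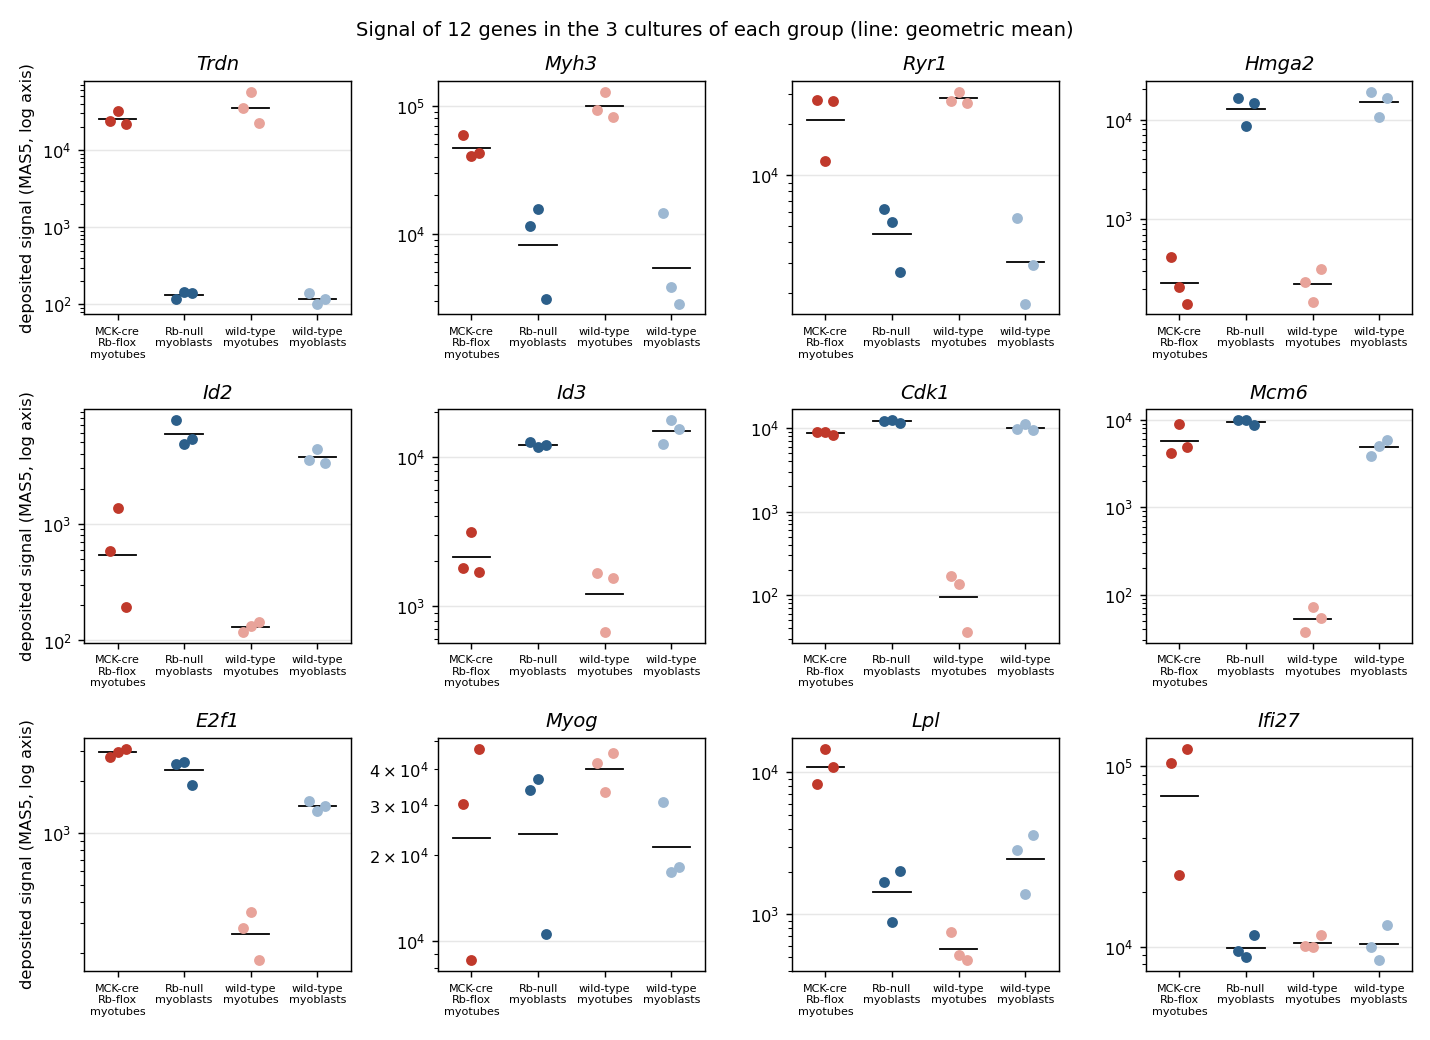
MAS5 signals (log axis, arbitrary units) of 12 genes in each culture of the 4 groups, MCK-cre Rb-flox myotubes, Rb-null myoblasts, wild-type myotubes and wild-type myoblasts, with a line at each group's geometric mean. Trdn, Myh3 and Ryr1 are higher in both kinds of myotubes, and Hmga2, Id2 and Id3 lower. Cdk1, Mcm6 and E2f1 are far below the myoblasts in wild-type myotubes and not called in those without Rb, and Myog overlaps between the groups without Rb.

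Calcium-handling genes had the highest share of called members among the muscle lists. Of 26 tested, 20 were higher and none lower, with a median of 1.48, beside 9.60% higher and 9.42% lower of all genes. The calcium release channel Ryr1 had 27914, 12079 and 27596 in myotubes and 6289, 5258 and 2646 in Rb-null myoblasts (log2 change 2.21, SE 0.42, adjusted p = 0.00382). The histidine-rich calcium-binding protein gene Hrc, whose product lies in the sarcoplasmic reticulum, had 23128, 17704 and 16726 in myotubes and 2788, 4028 and 1765 in myoblasts (log2 change 2.75, SE 0.38, adjusted p = 0.000654). All 3 myotube cultures exceeded all 3 myoblast cultures in both. Sarcolipin (Sln), which regulates the calcium pump, had 473, 155 and 1180.2 in myotubes and 29.6, 12.4 and 39.9 in myoblasts (log2 change 1.95, SE 0.63, adjusted p = 0.0448), all under the offset in the myoblasts. The junctophilins Jph1 and Jph2, which hold the surface membrane and the reticulum together, were the smallest called rises (0.86 and 0.82, adjusted p = 0.0438 and 0.0228). Leaving out 1 culture gave 14 (without J) to 22 (without K) members called and lost the calls of Sln (D, E, F, J or L, up to 0.153), Jph1 (D, F, J or L, up to 0.172) and Jph2 (D, F, J or L, up to 0.0862). Adding the scan-day block left 3 called, with a median of 1.66. The pumps Atp2a1 and Atp2a2, the calsequestrins Casq1 and Casq2 and the store sensor Stim1, all named here after their values were seen, were called as well, with log2 changes of 2.22, 1.74, 2.09, 2.57 and 2.48. The blocked fit gave log2 changes of 3.38 for Ryr1 (adjusted p = 0.0318) and 0.50 for Jph1 (adjusted p = 0.664).

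Genes of the dystrophin complex and costamere, which link the contractile apparatus to the membrane and matrix, were higher in 11 of 22 and lower in none, with a median of 0.86. Dystroglycan (Dag1) had 25795, 22481 and 32684 in myotubes and 6487, 6496 and 3848 in Rb-null myoblasts (log2 change 2.26, SE 0.31, adjusted p = 0.000652). Dystrophin (Dmd) had 1021, 1489 and 3533 in myotubes and 404, 509 and 638 in myoblasts (log2 change 1.57, SE 0.36, adjusted p = 0.0103), and desmin (Des), the muscle intermediate filament, 25213, 54638 and 20048 in myotubes and 13311, 12228 and 6773 in myoblasts (log2 change 1.54, SE 0.33, adjusted p = 0.00815). The myotube values were above all myoblast values in these 3 genes. Alpha-sarcoglycan (Sgca, 0.84) and ankyrin 1 (Ank1, 0.72) were called with smaller rises, adjusted p = 0.00657 and 0.0344, and another Ank1 probe set gave -0.10. Omission of 1 culture gave 5 (without D or F) to 9 (without L) members called. Among 27 fusion and adhesion genes, 8 were higher and 4 lower, with 3 (without F or J) to 6 (without E or K) higher when 1 culture was left out and 2 with the scan-day block. Both fusogens were called, in opposite directions: myomixer (Mymx) was lower, with 1331, 145 and 702 in myotubes and 7174, 13624 and 1579 in myoblasts (log2 change -2.85, SE 0.63, adjusted p = 0.00899), and myomaker (Mymk) higher, with 38160.5, 22814 and 37598 in myotubes and 18905, 13510.4 and 5200.2 in myoblasts (log2 change 1.53, SE 0.50, adjusted p = 0.0499). The Mymx call was kept without any 1 culture (adjusted p up to 0.0377). Dysferlin (Dysf), a membrane repair protein, rose (log2 change 1.85, SE 0.40, adjusted p = 0.00826), as did the laminin receptor subunit Itga7 (log2 change 1.16, SE 0.25, adjusted p = 0.00722). Vcam1, an adhesion receptor of fusing myoblasts, fell (log2 change -1.39, SE 0.29, adjusted p = 0.00669). Of 14 neuromuscular junction genes, 2 were higher and none lower, beside 9.60% higher and 9.42% lower of all genes. They were the receptor kinase Musk (log2 change 1.35, SE 0.21, adjusted p = 0.00136) and the adhesion molecule Ncam1 (0.996, adjusted p = 0.0392), for which another probe set gave -0.47. Calls lost when 1 culture was left out were those of Mymk (E, F, J, K or L, up to 0.174), Ank1 (E, F or K, up to 0.114) and Ncam1 (D, F, J or L, up to 0.141), and the junction list then had 1 (without D, F, J or L) to 3 (without E or K) higher. With the scan-day block, the log2 change was 0.96 for Dmd (adjusted p = 0.509), 3.04 for Mymk (adjusted p = 0.0848) and 2.04 for Itga7 (adjusted p = 0.0183).

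Muscle energy metabolism genes were higher in 16 of 28 and lower in 1, with a median of 1.13. Muscle phosphoglycerate mutase (Pgam2), a glycolytic enzyme, had 4376, 5952 and 3169 in myotubes and 539, 1765 and 183 in Rb-null myoblasts (log2 change 2.61, SE 0.59, adjusted p = 0.00978). Lipoprotein lipase (Lpl), which releases fatty acids for uptake, had 8284, 14702 and 10857 in myotubes and 1703, 881 and 2024 in myoblasts (log2 change 2.81, SE 0.36, adjusted p = 0.000422). Neither gene's groups overlapped. Muscle creatine kinase (Ckm), the gene whose promoter drives the Cre, had 6607, 4897 and 4299.9 in myotubes and 2304, 3153 and 573 in myoblasts, and was called (log2 change 1.58, SE 0.48, adjusted p = 0.0371). Its relative, brain creatine kinase (Ckb), fell (log2 change -0.88, SE 0.23, adjusted p = 0.0186). The Ckb change without Rb minus that with Rb was -1.89, so the wild-type pair did not show this fall. A regulatory subunit of phosphorylase kinase (Phka1) was 0.85 (adjusted p = 0.0182). General respiratory chain genes did not share this rise. Of 34 tested, 2 were higher, 6 lower and 26 not called, with a median of -0.03. Of all genes, 9.60% were higher and 9.42% lower. The succinate dehydrogenase subunits Sdhc (log2 change -0.92, SE 0.18, adjusted p = 0.00431) and Sdhd (log2 change -0.94, SE 0.19, adjusted p = 0.00529) fell, and Ogdh, of the citric acid cycle, and Cox4i1, of complex IV, rose by 0.82 and 0.61 (adjusted p = 0.00817 and 0.0319). Leaving out 1 culture gave 10 (without J or L) to 16 (without K) energy genes called higher and 2 (without D, F or J) to 6 (without L) respiratory genes called lower, and lost the calls of Ckm (D, F, J, K or L, up to 0.112), Ckb (D, E, J or L, up to 0.0775), Phka1 (D, E or L, up to 0.071) and Cox4i1 (D, E, F, K or L, up to 0.0924). Sterol and lipid synthesis genes were higher in 14 of 23 and lower in none, with a median of 0.93, 0.78 without culture K and 0.66 with the scan-day block, which left 1 called. Stearoyl-CoA desaturase 1 (Scd1) had 6017, 8555 and 2994 in myotubes and 636, 337 and 640.4 in myoblasts (log2 change 3.08, SE 0.39, adjusted p = 0.000427). Msmo1, an enzyme of cholesterol synthesis, had 3885, 4988 and 1894 in myotubes and 480.3, 427 and 473 in myoblasts (log2 change 2.55, SE 0.30, adjusted p = 0.00025). The sterol-sensing regulator Srebf2 rose by 0.83 (adjusted p = 0.00656). The media of the groups differed in serum, which cannot be told apart from the stage. Fitted with the scan-day block, log2 changes were 4.34 for Pgam2 (adjusted p = 0.043), -0.54 for Sdhd (adjusted p = 0.457), 0.36 for Cox4i1 (adjusted p = 0.626) and 0.36 for Srebf2 (adjusted p = 0.571).

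The chromatin protein gene Hmga2 (chr10:120361268-120476469), active in growing embryonic cells, had the largest fall. It had signals of 414, 209.6 and 143 in MCK-cre Rb-flox myotubes and 16402, 8554 and 14671 in Rb-null myoblasts (log2 change -5.12, SE 0.32, adjusted p = 4.48e-06). The myotube values lie near or under the offset, so the fitted change depends on it. The 4 Hmga2 probe sets past the filter gave log2 changes from -5.12 to -0.42. The phosphatases Dusp4 (-3.86, adjusted p = 0.00104) and Dusp5 (-3.44, adjusted p = 0.000827), which switch off MAP kinases, fell too, and the EGF receptor inhibitor Errfi1 had 724, 584 and 1079.6 in myotubes and 12391, 9493 and 12306 in myoblasts (log2 change -3.66, SE 0.27, adjusted p = 1.51e-05). The scavenging chemokine receptor Ackr3 had 286, 34.9 and 205 in myotubes and 3681, 3126 and 3416 in myoblasts (log2 change -3.63, SE 0.39, adjusted p = 0.000172), and the imprinted gene Mest 1259, 2253 and 1426 in myotubes and 13187, 17500.3 and 25434 in myoblasts (log2 change -3.40, SE 0.30, adjusted p = 6.36e-05). Dynap, Arhgap22, Igfbp3, Tnc, Rps6ka6 and Ttyh3 made up the 12, with log2 changes between -4.51 and -3.10. The 12 falls too were taken from called genes whose groups did not overlap. Every one of the 12 kept its call when any 1 culture was left out, and Hmga2, Errfi1, Arhgap22, Mest and Ttyh3 kept it with the scan-day block. The blocked fit gave log2 changes of -1.28 for Dusp5 (adjusted p = 0.328), -1.84 for Igfbp3 (adjusted p = 0.375) and -1.53 for Rps6ka6 (adjusted p = 0.508). Without the block, another probe set gave -0.65 for Rps6ka6 and -2.33 for Errfi1.

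Inhibitors of the myogenic factors fell most among 21 myogenic regulators, of which 2 were higher and 6 lower. Id2, which keeps MyoD from its partners, had 584, 1378 and 193 in myotubes and 7746, 4819 and 5362 in Rb-null myoblasts (log2 change -3.09, SE 0.41, adjusted p = 0.000528). Id3 had 1794, 3145 and 1680.3 in myotubes and 12510.1, 11595 and 11966 in myoblasts (log2 change -2.43, SE 0.30, adjusted p = 0.000355). Both falls were also called with the scan-day block (log2 change -3.42, adjusted p = 0.0482 and log2 change -2.79, adjusted p = 0.0302). MyoD (Myod1) had 14109.8, 15682 and 20452 in myotubes and 42284, 31108 and 33642 in myoblasts and was called lower (log2 change -1.09, SE 0.20, adjusted p = 0.00318). Myogenin (Myog) had 30171, 8523 and 47126 in myotubes, with K the lowest, and 33833, 36855 and 10533 in myoblasts, where F was the lowest. The groups overlapped and the difference was not called (log2 change -0.04, SE 0.56, adjusted p = 0.968), at 0.67 without K. Myf5 was not called either (log2 change -0.53, SE 0.68, adjusted p = 0.608). Both called MEF2 genes were higher. Mef2c had 12729, 10099 and 16869.7 in myotubes and 2774, 7614 and 1793 in myoblasts (log2 change 1.90, SE 0.47, adjusted p = 0.0157). Mef2d was 1.32 (adjusted p = 0.00617), with another probe set at -0.08. Satellite cell genes and growth receptors were lower in 8 of 20 and higher in 3, with a median of -0.62. Pax7, which marks satellite cells, had 817, 883 and 689 in myotubes and 1450.2, 1597 and 2552 in myoblasts (log2 change -1.07, SE 0.25, adjusted p = 0.0109). The chemokine receptor Cxcr4 (log2 change -2.40, SE 0.33, adjusted p = 0.000654) and Etv4, a transcription factor that FGF signals induce (log2 change -2.71, SE 0.32, adjusted p = 0.000286), fell further. The syndecan Sdc4 was called higher (log2 change 2.50, SE 0.80, adjusted p = 0.0454), but another of its probe sets gave -1.15 and the scan-day block turned it to -1.57, so no direction is given. The FGF receptor Fgfr4 was not called (-0.11, adjusted p = 0.811), and its other probe sets ranged from -0.90 to 0.34. Of 16 Notch pathway genes 3 were lower and none higher, beside 9.42% lower and 9.60% higher of all genes. Hes1, the Notch effector that holds back differentiation, had 608, 419 and 409.6 in myotubes and 2341, 2149 and 2689.9 in myoblasts (log2 change -2.06, SE 0.22, adjusted p = 0.000172), and Hes6 (log2 change -1.30, SE 0.25, adjusted p = 0.00413) and Lfng (-1.17, adjusted p = 0.0441) were the others. Omission of 1 culture lost the calls of Mef2c (D, F or L, up to 0.0628), Sdc4 (any 1 culture, up to 0.125) and Lfng (E, F, J, K or L, up to 0.155), and each omission left 1 satellite or receptor gene called higher. With the scan-day block, the log2 change was 3.04 for Mef2c (adjusted p = 0.09), 0.42 for Mef2d (adjusted p = 0.669), -0.60 for Pax7 (adjusted p = 0.527), -0.96 for Cxcr4 (adjusted p = 0.186) and -1.71 for Etv4 (adjusted p = 0.101).

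Most genes of DNA replication were not called between Rb-deleted myotubes and Rb-null myoblasts. Of 48 tested G1/S and replication genes 6 were called lower, none higher and 42 not, with a median of -0.26, and at an unadjusted p under 0.05 in limma 13 were lower and 2 higher. Their share called lower stands beside 9.42% of all genes. At that unadjusted p, 2183 of all 14331 genes were lower and 2895 higher. The list's median was -0.42 with the scan-day block, which left 0 called, and -0.47 after median centring. The medians of all genes were then -0.0042 and -0.037. Summed over the list, signals were 210014 to 257557 in MCK-cre Rb-flox myotubes and 232687 to 271249 in Rb-null myoblasts, which overlap. The replicative helicase subunit Mcm6 had 4218, 8863 and 4924 in myotubes and 9930.2, 9882 and 8824 in myoblasts and was not called (log2 change -0.73, SE 0.25, adjusted p = 0.058). Its probe sets ranged from -1.18 to -0.03. Dut, which keeps uracil out of DNA, had 736, 1184 and 954 in myotubes and 2754, 3114 and 3230.2 in myoblasts (log2 change -1.56, SE 0.26, adjusted p = 0.00188). The helicase loader Cdc6 had 446, 281 and 579.9 in myotubes and 1766, 1692 and 924 in myoblasts (log2 change -1.48, SE 0.41, adjusted p = 0.0244). Both were non-overlapping, and Dut kept its call without any 1 culture. The histone mRNA binding gene Slbp (-1.14, adjusted p = 0.0155, another probe set 0.10) and the replisome gene Gins2 (-0.85, adjusted p = 0.0391) were also called. Omission of 1 culture gave 3 (without E) to 6 (without K) members called and lost Cdc6 (D, E, J or K, up to 0.0938), Slbp (E or L, up to 0.0644) and Gins2 (D, E, F, K or L, up to 0.132). The promoter windows of Dut, at chr2:125247265-125247564 on the plus strand, and Cdc6, at chr11:98907901-98908200 on the plus strand, are printed in the same way, with matches in capitals.
Dut: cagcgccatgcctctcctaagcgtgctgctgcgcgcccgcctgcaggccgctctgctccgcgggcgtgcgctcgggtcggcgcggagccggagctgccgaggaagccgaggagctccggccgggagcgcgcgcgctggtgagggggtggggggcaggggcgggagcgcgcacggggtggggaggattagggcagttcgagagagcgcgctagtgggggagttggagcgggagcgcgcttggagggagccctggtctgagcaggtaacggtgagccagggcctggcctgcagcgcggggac
Cdc6: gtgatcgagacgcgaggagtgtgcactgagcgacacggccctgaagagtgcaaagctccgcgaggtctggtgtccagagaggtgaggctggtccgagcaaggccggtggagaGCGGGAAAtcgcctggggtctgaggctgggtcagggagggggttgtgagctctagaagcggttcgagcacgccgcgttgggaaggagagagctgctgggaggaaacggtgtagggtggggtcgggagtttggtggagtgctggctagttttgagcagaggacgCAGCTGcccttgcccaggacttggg
The Dut window holds none of the motifs searched, and the Cdc6 window holds 1 E2F match and 1 E-box. An E2F motif stood in 26.0% of 50 windows of the G1/S list (40 of 48 genes matched), 6.00% of those of the G2/M list and 4.98% of all. Among all called genes it stood in 3.44% of windows of those higher and 6.94% of those lower. Fitted with the scan-day block, log2 changes were -0.92 for Dut (adjusted p = 0.28), -2.24 for Cdc6 (adjusted p = 0.141) and -0.39 for Slbp (adjusted p = 0.742).

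Genes of mitosis were lower in 31 of 57, higher in none and not called in 26, beside 9.42% lower and 9.60% higher of all genes. Their median was -0.90. Their summed signals did not overlap, at 104598 to 121135 in myotubes against 230910 to 237447 in Rb-null myoblasts. Ect2, which positions the cleavage furrow, had 537, 351 and 314 in myotubes and 2139, 3517 and 3094 in myoblasts (log2 change -2.52, SE 0.35, adjusted p = 0.000652). The kinetochore gene Spc24 had 3526, 1087 and 2200.4 in myotubes and 14831, 11021 and 14354 in myoblasts (log2 change -2.58, SE 0.38, adjusted p = 0.000975), and the ubiquitin-conjugating enzyme of mitotic exit Ube2c 4042, 4558 and 3226 in myotubes and 12848, 10579 and 9687 in myoblasts (log2 change -1.46, SE 0.19, adjusted p = 0.000502). All 3 kept their call when any 1 culture was left out. The mitotic kinase Cdk1 had 8857, 8849 and 8328 in myotubes and 12050.2, 12435 and 11484 in myoblasts. The groups did not overlap, and the difference was not called (log2 change -0.46, SE 0.20, adjusted p = 0.121). Cyclin A2 (Ccna2, log2 change -0.85, SE 0.21, adjusted p = 0.0161) and the proliferation antigen Mki67 (log2 change -0.97, SE 0.26, adjusted p = 0.0221) were called lower. The condensin subunit Ncapd2 (-0.69, adjusted p = 0.0423, another probe set 0.20) and Fzr1, an activator of the anaphase-promoting complex (-0.70, adjusted p = 0.0327), were also called lower. Leaving out 1 culture gave 20 (without F) to 28 (without J) members called and lost Ccna2 (E, up to 0.0603), Mki67 (E, F, K or L, up to 0.079), Ncapd2 (any 1 culture, up to 0.123) and Fzr1 (D, E, F, K or L, up to 0.128). Over the list, medians relative to the Rb-null myoblast mean were -0.75, -0.96 and -0.93 in J, K and L, a range that lay below -0.09, 0.01 and 0.04 in D, E and F. The scan-day block left 7 members called lower, with a median of -0.78. The blocked fit gave log2 changes of -1.67 for Ect2 (adjusted p = 0.166), -0.61 for Mki67 (adjusted p = 0.583) and -0.38 for Ncapd2 (adjusted p = 0.677).

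Among 22 pocket proteins, E2Fs, cyclins and CDKs, 6 were lower and none higher. Cyclin D1 (Ccnd1), the growth-factor-induced partner of Cdk4, had 2881, 5302 and 4470.0 in myotubes and 16006, 7333 and 16150.5 in Rb-null myoblasts (log2 change -1.57, SE 0.36, adjusted p = 0.0104). Cyclin D3 (Ccnd3) was -0.65 (adjusted p = 0.0293), E2f2 -1.27 (0.0142) and E2f7 -0.74 (0.0354). Cdk4 itself, named after its values were seen, was called lower (-1.22, adjusted p = 0.000405), and kept the call without any 1 culture. Its change with the scan-day block was -1.03 (adjusted p = 0.0786). Omission of 1 culture gave 2 (without D) to 5 (without K) members called and lost Ccnd3 (D, F, J, K or L, up to 0.115), E2f2 (D or E, up to 0.0644) and E2f7 (D, E, F, J or L, up to 0.133). E2f1 had 2764, 2953 and 3083 in myotubes and 2514, 2570.4 and 1896 in myoblasts. Every myotube value was the higher, and the difference was not called (log2 change 0.33, SE 0.21, adjusted p = 0.282). Cyclin E1 (Ccne1) was not called (log2 change 0.57, SE 0.32, adjusted p = 0.212), nor were the pocket proteins p107 (Rbl1, -0.36, adjusted p = 0.338) and p130 (Rbl2, 0.62, adjusted p = 0.108). Another probe set gave -0.16 for Ccne1 and 1.02 for Rbl1. Of 8 CDK inhibitors, beside 9.60% higher and 9.42% lower of all genes, only Cdkn1a, which encodes p21, was called. It had 55109.7, 64158 and 62933 in myotubes and 37703, 37448 and 24686 in myoblasts (log2 change 0.89, SE 0.21, adjusted p = 0.0133), and the call was lost without F (adjusted p = 0.0518). Cdkn1c (-0.48, adjusted p = 0.554) and Cdkn2a (0.07, adjusted p = 0.86) were not called. Of 20 DNA repair and checkpoint genes, 3 were lower and none higher, beside 9.42% lower and 9.60% higher of all genes. The 3 were the ATR partner Atrip (-1.43, adjusted p = 0.0133), the mitotic brake Wee1 (-0.99, adjusted p = 0.0174) and the deubiquitinase Usp1 (-0.89, adjusted p = 0.00512). The calls of Atrip (D, up to 0.0607) and Wee1 (F or L, up to 0.0719) were lost when 1 culture was left out. With the scan-day block, the log2 change was -0.15 for Ccnd3 (adjusted p = 0.864), -2.33 for Atrip (adjusted p = 0.179) and -0.46 for Usp1 (adjusted p = 0.47).

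Ribosome biogenesis genes were lower in 18 of 29 and higher in none, beside 9.42% lower and 9.60% higher of all genes. Their median was -0.74. Rrp9, of the U3 snoRNP, had 144, 175 and 169 in myotubes and 1670.3, 1854 and 859.7 in Rb-null myoblasts (log2 change -2.38, SE 0.50, adjusted p = 0.0066). Rrs1, a ribosome assembly factor, had 968, 1122 and 1021 in myotubes and 3739, 4088 and 4313 in myoblasts (log2 change -1.84, SE 0.21, adjusted p = 0.00025). The groups overlapped in neither, and both calls were kept when any 1 culture was left out. The smallest called falls were Utp15 (-0.59, adjusted p = 0.026) and Nip7 (-0.65, adjusted p = 0.0346), and another Nip7 probe set gave 0.51. Leaving out 1 culture gave 11 (without D) to 17 (without L) members called and lost Nip7 (D, E, F, K or L, up to 0.118) and Utp15 (D, E, F or K, up to 0.0788). The pseudouridine synthase dyskerin (Dkc1) and fibrillarin (Fbl), named after their values were seen, were -1.83 and -1.46. Summed signals were 99276 to 113549 in myotubes against 173372 to 209303 in myoblasts, and with the scan-day block 3 members were called and the median was -0.87. Fitted with the scan-day block, the log2 change was -0.31 for Rrp9 (adjusted p = 0.855).

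Antigen presentation and interferon response genes had the highest median of any list, 1.86. The fit called 18 of 28 higher and none lower, beside 9.60% higher and 9.42% lower of all genes. These 28 are the members that passed the filter, of 37 on the arrays. Signal on 3 of the 12 arrays sufficed, so a gene bright in the myotubes alone was kept. The median and its rank hold for the members kept. Culture K was apart from the other myotubes here: the list's median relative to the Rb-null myoblast mean was 2.31, 0.84 and 2.38 in J, K and L, and 0.03, -0.17 and 0.16 in D, E and F. Without K, 21 were called with a median of 2.36. Without E, 12 were, and without J or L 13. With the scan-day block the median was 1.70 and 0 members were called by limma, against 17 higher at an unadjusted p under 0.05. Of all 14331 genes, 1124 were higher with the block at that unadjusted p. The interferon-induced gene Ifi27 had 104522, 24852 and 125555 in myotubes and 9480.0, 8781 and 11626 in Rb-null myoblasts (log2 change 2.77, SE 0.45, adjusted p = 0.0016). Oas1a, an antiviral 2'-5'-oligoadenylate synthetase, had 2514, 1182 and 2495 in myotubes and 173, 136 and 201 in myoblasts (log2 change 2.80, SE 0.36, adjusted p = 0.000479). Both kept their call without any 1 culture. The peptide transporter Tap2 was 0.96 (adjusted p = 0.0135), and the transcription factor Irf1 0.85 (adjusted p = 0.0071). The class I light chain B2m and heavy chain H2-K1, named after their values were seen, were 2.06 and 2.63. Beside this list, macrophage markers summed to 8936 to 10755 in myotubes and 4962 to 6899 in myoblasts. Called higher were 4 of 7 and lower none, beside 9.60% and 9.42% of all genes. They were Adgre1 (1.31), Cd68 (1.21), Csf1r (0.92) and Fcgr1 (0.62). Lyz2, at 143 to 606 in myotubes and 289 to 616 in myoblasts, was the only tested marker with a negative change. With Rb, these markers summed to 7919 to 11589 in myotubes and 5208 to 8121 in myoblasts, with a median change of 0.53. When 1 culture was left out, the calls of Tap2 (E, up to 0.0567), H2-K1 (E, F, J or L, up to 0.0888), Csf1r (D, E, J, K or L, up to 0.113) and Fcgr1 (D, up to 0.0632) were lost, and 2 (without D) to 4 (without F) macrophage markers were higher. The part of the macrophage markers in the result was not tested. The blocked fit gave log2 changes of 1.54 for Tap2 (adjusted p = 0.0615), 0.42 for Irf1 (adjusted p = 0.525), 0.66 for Adgre1 (adjusted p = 0.521), 0.72 for Cd68 (adjusted p = 0.497) and 0.42 for Csf1r (adjusted p = 0.718).

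**Figure D3:**
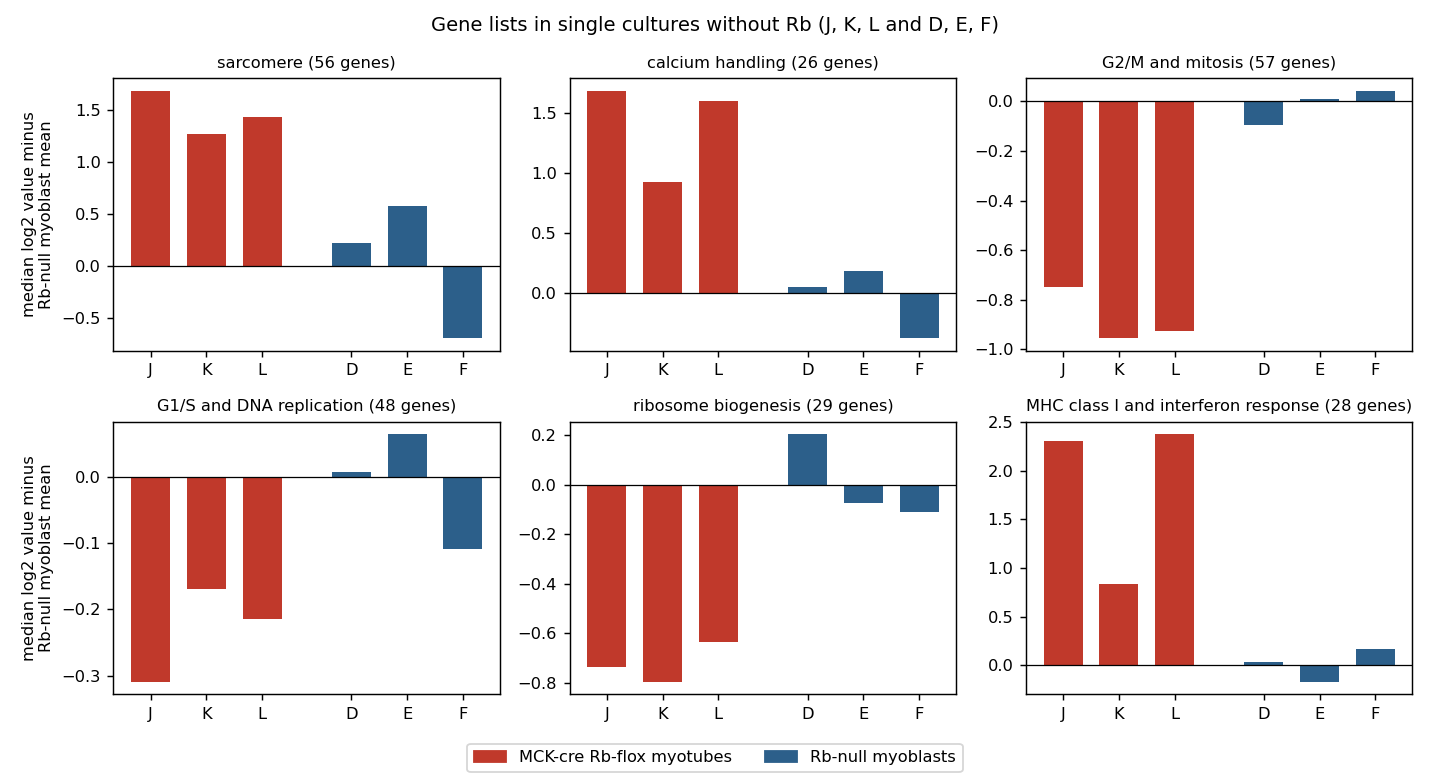
Median log2 value of 6 gene lists in each culture, MCK-cre Rb-flox myotubes J, K and L and then Rb-null myoblasts D, E and F, relative to each gene's mean in the Rb-null myoblasts (bars start at 0). Sarcomere and calcium lists are above the myoblasts in all 3 myotube cultures, mitosis and ribosome lists below, and K carries 0.84 for the interferon list where J and L carry 2.31 and 2.38.

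Of 27 ER stress and amino acid response genes 6 were higher and 1 lower. Ddit3, which encodes the stress factor CHOP, had 4587, 3357 and 6635 in myotubes and 733, 853 and 494 in Rb-null myoblasts (log2 change 2.57, SE 0.34, adjusted p = 0.000498). Trib3, a pseudokinase induced with it, was 1.91 (adjusted p = 0.0148). The ER chaperone Hsp90b1 fell by 0.64 on the log2 scale (adjusted p = 0.0126), and the amino acid transporter chain Slc3a2 rose by 0.91 (adjusted p = 0.0441). Autophagy and atrophy genes were higher in 7 of 28 and lower in none, with a median of 0.36. The autophagosome protein Map1lc3a had 15174, 12085 and 11981 in myotubes and 4678, 4201 and 2601 in myoblasts (log2 change 1.77, SE 0.28, adjusted p = 0.00151), and the transcription factor Foxo3, which drives such genes in muscle, 6367, 3606 and 6893 in myotubes and 1972, 1782 and 1790.1 in myoblasts (log2 change 1.49, SE 0.25, adjusted p = 0.00211). The lysosomal membrane proteins Lamp1 and Lamp2 rose by 0.92 and 1.02 (adjusted p = 0.0031 and 0.016). With the block 3 of the list were called. Omission of 1 culture gave 2 (without E, J or L) to 6 (without K) stress genes and 6 (without D or L) to 8 (without J or K) autophagy genes called higher. Of 21 immediate early genes 2 were higher and 4 lower, beside 9.60% higher and 9.42% lower of all genes. The AP-1 subunit Fosl1 had 1006, 1257 and 725 in myotubes and 4644, 4944 and 6606 in myoblasts (log2 change -2.31, SE 0.22, adjusted p = 9.68e-05), and Egr1, a serum-induced factor, 1436, 1810.4 and 3819.7 in myotubes and 7849, 11807 and 7802 in myoblasts (log2 change -1.99, SE 0.40, adjusted p = 0.00533). The stress-induced Atf3 rose (log2 change 2.32, SE 0.38, adjusted p = 0.0018), as did the nuclear receptor Nr4a1 (1.69, adjusted p = 0.00273). Of 17 heat shock genes 5 were higher and 4 lower. The muscle small heat shock protein Hspb7 was the largest rise (log2 change 2.04, SE 0.43, adjusted p = 0.00669), and Bag3 (-0.81) and Dnaja1 (-0.73) were the largest falls. Of 21 p53 targets and apoptosis genes, Bbc3 (PUMA, 1.04) and Bcl2l1 (0.71) were higher and Casp8 (-0.92) lower, with adjusted p = 0.0124, 0.0384 and 0.0221. Leaving out 1 culture gave 2 (without D, F, J or K) to 6 (without L) heat shock genes called higher and 0 (without D or J) to 4 (without K) lower, and lost the calls of Trib3 (E, J or L, up to 0.0607), Slc3a2 (E, F, J or L, up to 0.164), Lamp2 (D or L, up to 0.0615), Bag3 (D, E, J or L, up to 0.179), Dnaja1 (D, E, F, J or L, up to 0.152), Bcl2l1 (D, E, F, K or L, up to 0.129) and Casp8 (E, F, J or K, up to 0.0734). With the scan-day block, the log2 change was 2.71 for Map1lc3a (adjusted p = 0.012), 1.91 for Lamp2 (adjusted p = 0.0295), -1.22 for Egr1 (adjusted p = 0.457), 0.85 for Nr4a1 (adjusted p = 0.433), -0.22 for Bag3 (adjusted p = 0.871), -0.46 for Dnaja1 (adjusted p = 0.661) and 0.43 for Bcl2l1 (adjusted p = 0.663).

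Of 28 fibroblast and matrix genes 4 were higher and 4 lower, beside 9.60% and 9.42% of all genes, with a median of 0.53 and 0.00 with the block. When 1 culture was left out, 2 (without L) to 6 (without K) were higher. Tenascin C (Tnc), a matrix protein of growing and healing tissue, had 364, 261 and 549 in myotubes and 4208, 4826 and 6769.6 in Rb-null myoblasts (log2 change -3.38, SE 0.58, adjusted p = 0.00223). The basement membrane collagen Col4a1 had 801, 3784 and 1294 in myotubes and 8375, 9566 and 12835 in myoblasts (log2 change -2.56, SE 0.41, adjusted p = 0.00155). Both falls left no overlap. The interstitial collagen Col1a1 had 1008, 80.5 and 1119 in myotubes and 19.2, 8.22 and 18.9 in myoblasts and was not called (log2 change 2.20, SE 0.80, adjusted p = 0.0718). Thrombospondin 2 (Thbs2, log2 change 1.56, SE 0.29, adjusted p = 0.0034) and the PDGF receptor Pdgfra (log2 change 1.55, SE 0.35, adjusted p = 0.00967) rose. In the IGF axis 3 of 15 were higher and 2 lower. The binding protein Igfbp3 had 41.3, 34.4 and 280.5 in myotubes and 1385, 1694 and 5141 in myoblasts (log2 change -3.43, SE 0.57, adjusted p = 0.00187), and the insulin receptor substrate Irs1 fell (log2 change -1.38, SE 0.22, adjusted p = 0.00145). Igf2, a growth factor that differentiating muscle makes, had 69107, 39780.1 and 53118 in myotubes and 29458, 21854 and 13422 in myoblasts (log2 change 1.35, SE 0.37, adjusted p = 0.0227), and Igfbp7 was 2.24 (adjusted p = 0.0139). Of the other cell types, 2 of 5 adipocyte markers were higher (Lipe 1.73 and Dgat2 0.81), 1 of 6 smooth muscle markers (Mylk 1.17), and 1 of 5 Schwann and neural markers in each direction (Pmp22 1.10 and Nefl -2.73), and no endothelial marker of 5 was called by limma, nor at an unadjusted p under 0.05. Summed signals in myotubes and myoblasts were 5076 to 6967 and 2316 to 4085 for adipocyte markers, 6232 to 10757 and 4458 to 5422 for smooth muscle markers, 6812 to 10372 and 5306 to 5698 for Schwann and neural markers, and 4467 to 5272 and 2369 to 2925 for endothelial markers. Of the genes named here, Igf2 (E, F, J or L, up to 0.087), Igfbp7 (E or J, up to 0.0563), Dgat2 (D, E, J or L, up to 0.136), Mylk (D, E, F, J or L, up to 0.156) and Pmp22 (E, up to 0.0534) lost the call when 1 culture was left out, and omissions gave 0 (without J) to 5 (without K) IGF genes called higher. What part cells of these types have in the gene lists was not tested. Fitted with the scan-day block, log2 changes were 0.84 for Pdgfra (adjusted p = 0.539), 2.65 for Igf2 (adjusted p = 0.0295) and 0.29 for Dgat2 (adjusted p = 0.794).

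Differentiation with Rb was set beside these values. Wild-type myotubes had 2080 genes higher (14.5%) and 2215 lower (15.5%) than wild-type myoblasts, and the pairs share no culture. Of the genes higher without Rb, 765 were also higher with Rb, which is 55.6% of the genes higher without Rb and 36.8% of those higher with Rb. Of the genes lower without Rb, 959 were lower with Rb too, 71.0% and 43.3% of the lists. Called in opposite directions were 9 genes that were higher without Rb and 3 that were lower. Of 602 genes higher without Rb and not called with Rb, the difference of the changes was itself called for 20, and of 388 such lower genes for 8, so most of these are not shown to differ. In all, the difference was called positive (the change without Rb above the change with Rb) for 217 genes (1.51%) and negative for 107 (0.747%).

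Replication and mitosis lists differed most often. The difference was positive in 22 of 48 G1/S genes and 25 of 57 G2/M genes and negative in none. The G1/S median was -0.26 without Rb and -1.85 with Rb, and the G2/M median -0.90 and -2.67. Cdk1 in wild-type cells had 169, 134 and 36.1 in myotubes and 9631, 11037 and 9472 in myoblasts, and the changes without and with Rb differed by 4.97 (SE 0.28, adjusted p = 2.67e-06). Mcm6 in wild-type cells had 37.3, 72.2 and 53.4 in myotubes and 3903, 4999.7 and 5872 in myoblasts (difference 4.03, SE 0.35, adjusted p = 0.000106). Ube2c, lower in both pairs, fell less without Rb (difference 3.66, SE 0.27, adjusted p = 1.88e-05). In the muscle lists the called differences were mostly negative. The difference was negative in 6 and positive in 1 of 56 sarcomere genes, negative in 2 of 26 calcium genes, and negative in 5 and positive in 1 of 28 energy genes. At an unadjusted p under 0.05 in limma it was negative in 28, 13 and 12 genes of these lists and positive in 2, 0 and 1. Of all 14331 genes it was then negative in 907 and positive in 1205. Their medians were 1.50, 1.48 and 1.13 without Rb, against 3.11, 3.07 and 2.46 with Rb. Myh2 had 319, 1013 and 892 in MCK-cre Rb-flox myotubes and 43.6, 42.4 and 582 in Rb-null myoblasts. Cultures with Rb had 32847, 37209 and 79936 as myotubes and 550.0, 90.2 and 512 as myoblasts (difference -5.12, SE 0.85, adjusted p = 0.0074). Tnni2 (-3.87, adjusted p = 0.0325), Ckm (-3.16, 0.0311), Myh8 (-2.84, 0.022) and Sln (-4.38, 0.0224) rose less without Rb. For Tnni2 the myoblasts stood apart too: means were 18407 in myotubes and 5405 in myoblasts without Rb, and 55527 and 946 with Rb. Without Rb minus with Rb, limma called Tnni2 neither between myotubes (-1.70, adjusted p = 0.0891) nor between myoblasts (2.17, adjusted p = 0.48). For Myh3 (-1.68, 0.371), Acta1 (-1.21, 0.351) and Ryr1 (-0.96, 0.512) the difference was not called. Ribosome biogenesis had medians of -0.74 without Rb and -0.63 with Rb, and sterol synthesis 0.93 without Rb and 1.04 with Rb. No difference was called in either list by limma, and at an unadjusted p under 0.05 there were 2 positive and 2 negative ribosome genes and 2 and 1 sterol genes. The interferon list had 1.86 without Rb and 0.26 with Rb, with a called positive difference in 5 of 28 genes, Ifi27 (2.75, adjusted p = 0.0416) and Tap2 (2.71, adjusted p = 0.000997) among them.

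**Figure D4:**
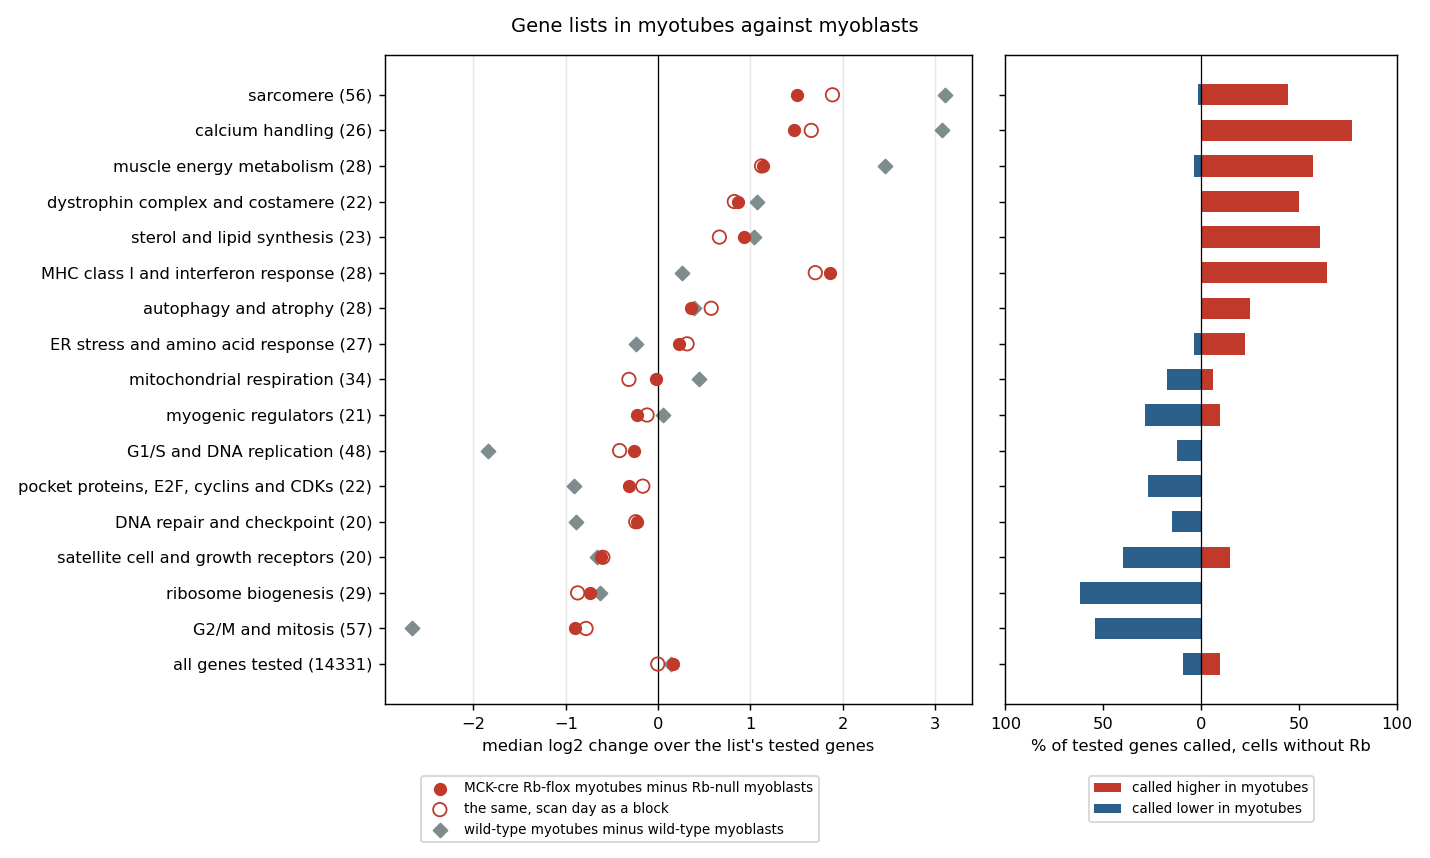
Left, median log2 change of 16 gene lists and of all genes for myotubes minus myoblasts, without Rb, without Rb with scan day as a block, and with Rb. Right, percent of each list's tested genes called higher or lower without Rb. The G1/S list lies at -0.26 without Rb and -1.85 with Rb, and the sarcomere list at 1.50 and 3.11.

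**Figure D5:**
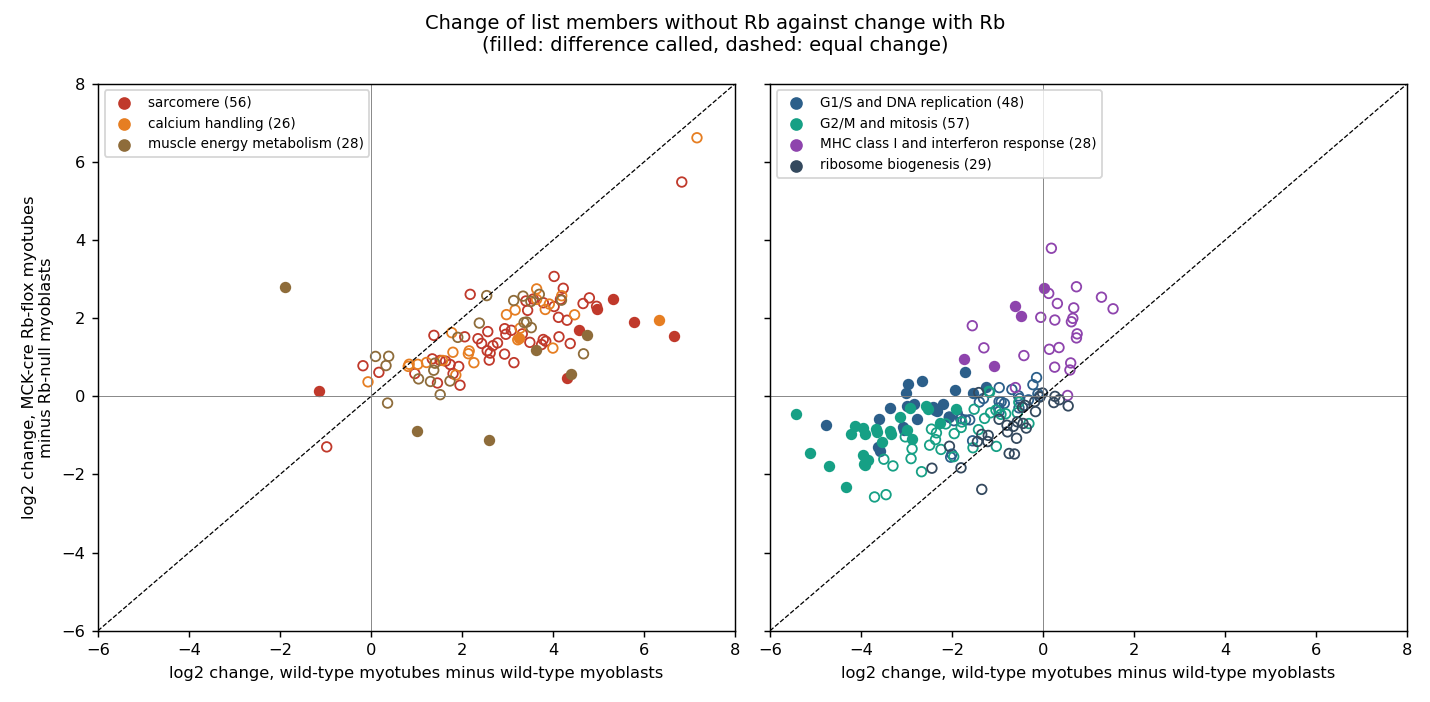
Log2 change of single genes of 7 lists without Rb (y axis) against the change with Rb (x axis), with filled points where the difference between the changes was called and a dashed line of equal change. Filled replication and mitosis genes lie above the line, 22 and 25 of them, and filled sarcomere genes mostly below it, 6 of 7.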

How the data were processed

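RNA from 12 cultures was measured on Affymetrix MOE430A and MOE430B arrays. The deposited tables hold 1 linear intensity per probe set and array, made with MAS5 per the submitters' processing notes (version not given in the sources used here). As deposited, each array's mean without the lowest and highest 2% is 1500. The scanner's deposited records (unit: other) were read for chip type and scan day. Intensities were logged after adding the 20th percentile of the chip type's table, which understates changes of dim genes, and a probe set stayed in where 3 or more of the 12 arrays put it above their own 40th percentile. A single probe set stood for a gene, from MOE430A before MOE430B and then by the highest mean. The 12 cultures were fitted with limma 3.58.1 (lmFit, eBayes with trend; R 4.3.3) with 1 mean per group, which gave the contrasts and Benjamini-Hochberg adjusted p over 14331 genes. The fit was tested on simulated data, drawn independently around 1 mean per gene with known shifts in 1 group. The simulated data had no scan-day effect and no culture that stood apart, so that test does not cover either. The p-values of the fit measure the spread between these cultures. Named genes were, among called genes without overlap between groups, those with the 12 highest and 12 lowest log2 changes, the 8 largest differences in each direction, a fixed panel, and up to 4 called members of each of 32 lists. Members and lists were chosen with earlier results of these data known, and lists were given no test. Alternatives were offsets, filters, normalizations, probe set choices, scan day as a block and omission of each culture. Tables and figures used Python 3.11.15 with pandas 2.3.3 and matplotlib 3.10.9. Gene names and promoters came from RefSeq on GRCm38.p6.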

Additional observations from a re-analysis of the deposited data

Results flagged for a closer look

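For 32 named genes the change between myotubes and myoblasts differed between the cells without and with Rb by the fit's test of that difference, and each value here is the log2 change without Rb minus that with Rb. Among replication, repair and mitosis genes the values were Cdk1 4.97, Mcm6 4.03, Ube2c 3.66, Topbp1 3.58, Mki67 3.26, Ccne1 2.93, E2f1 2.32, Gins2 2.20, Ccna2 2.14, Wee1 1.86, Ncapd2 1.57 and Usp1 1.38. Among contractile and muscle enzyme genes they were Myh2 -5.12, Sln -4.38, Ablim3 -3.95, Tnni2 -3.87, Tcap -3.84, Ckm -3.16, Myh8 -2.84 and Ckb -1.89. Ablim3 is an actin-binding LIM protein, and Tcap a titin-binding Z-disc protein. Interferon and stress genes had Ifi202b 3.92, Ifi27 2.75, Tap2 2.71 and Ddit3 2.58. The other positive values were Gpnmb 3.29, Mest 2.02, D17H6S56E-5 5.16, Lpl 4.69 and Sct 4.27, and the other negative ones Ramp1 -4.65, Cd36 -3.81 and Cilp -3.79. Lpl, the lipase, had signals of 8284, 14702 and 10857 in MCK-cre Rb-flox myotubes and 1703, 881 and 2024 in Rb-null myoblasts, against 749, 518 and 473 in wild-type myotubes and 2845, 1400.5 and 3627 in wild-type myoblasts. Cd36, a fatty acid transporter, had 229.9, 152 and 448 in MCK-cre Rb-flox myotubes and 133, 336 and 14.7 in Rb-null myoblasts, against 3265, 6485 and 3819 in wild-type myotubes and 74.8, 167 and 28.7 in wild-type myoblasts.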

How the results depend on the processing

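With scan day as a block, 195 genes were called between the cultures without Rb (121 higher and 74 lower), 2114 between the wild-type cultures (1041 and 1073) and 290 for the difference. Median centring gave 739 genes higher, and an offset of 16 gave 70 with a negative difference. Leaving out 1 culture at a time gave 1561 to 2135 calls without Rb (747 to 1058 higher, 814 to 1077 lower), 2845 to 4949 with Rb (1309 to 2692 higher), where the highest counts came without culture B and the lowest without C, and 139 to 333 differences (99 to 237 positive, 40 to 136 negative). The block turned the sign of Topbp1 0.29 (otherwise -0.15), Cd36 -0.14 (otherwise 0.58), Rbl1 0.28 (otherwise -0.36), Ccne1 -0.032 (otherwise 0.57), Myog 0.40 (otherwise -0.037), Myf5 0.48 (otherwise -0.53), Myoz1 -0.082 (otherwise 0.96), Sdc4 -1.57 (otherwise 2.50), CDK inhibitors 0.039 (otherwise -0.14), immediate early and Myc -0.023 (otherwise 0.098), endothelial markers -0.70 (otherwise 0.55), Schwann and neural markers -0.66 (otherwise 0.40) and myoblast and muscle lineage markers 0.40 (otherwise -0.037). Median centring turned Cilp -0.13 (otherwise 0.044), Cdkn2a -0.14 (otherwise 0.071), fusion and adhesion -0.061 (otherwise 0.15) and immediate early and Myc -0.11 (otherwise 0.098), quantile normalization Cilp -0.14 (otherwise 0.044) and immediate early and Myc -0.048 (otherwise 0.098), an offset of 16 Ablim3 -0.052 (otherwise 0.19) and no filter Nebl 0.21 (otherwise -1.29). The respiration median, -0.028, was 0.0011 after quantile normalization. Over omissions of 1 culture these log2 changes or list medians crossed 0: Ramp1 -0.58 to 0.16, Ablim3 -0.46 to 1.25, Cilp -0.25 to 0.23, Cdkn2a -0.065 to 0.28, Myog -0.62 to 0.67, Myf5 -1.29 to 0.13, Fgfr4 -0.38 to 0.17, mitochondrial respiration -0.10 to 0.0018, Notch pathway -0.19 to 0.069, immediate early and Myc -0.0017 to 0.22 and myoblast and muscle lineage markers -0.23 to 0.34. The cause was not tested. Of 133 named genes called, 84 kept the call whichever culture was left out and 49 lost it at least once. Of 83 named genes with several probe sets past the filter, 13 had probe sets of opposite sign, 7 of them called. No paired analysis was made, because each letter names 1 culture and no label read here links cultures across groups. Signals near the offset limit what fold changes of dim genes can show, and 3 cultures per group limit the precision of all values.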
